A study of Homo sapiens with 6 samples.

Results

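Histone lysine acetylation (Kac) and histone lysine benzoylation (Kbz) were described at the genes of 10 glycolytic enzymes, HK2, GPI, PFKL, ALDOA, TPI1, GAPDH, PGK1, ENO1, PKM and LDHA. The rule lists the genes by name as enzymes of the pathway and uses no measured value, although the pathway was picked with earlier results of these data known. They are 10 of the 20033 protein-coding genes of GENCODE 44 on hg38. The window of a gene was its annotated body plus 5 kb on either side, and a peak that shared at least 1 base with the window was counted for that gene.

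The samples were cells labelled HepG2, a human liver tumor line, grown in DMEM with 10% serum. Control cells were left untreated and treated cells received sodium benzoate (SB), a food preservative that cells convert to benzoyl-CoA, at 10 mM for 24 h. MNase-digested chromatin was immunoprecipitated with a pan anti-Kac or a pan anti-Kbz antibody, which read the modification on any histone lysine. There were 6 libraries in 6 groups, 1 library per group, so no difference below has a replicate error or a test. Peak lists of control Kac (70326 peaks), SB Kac (63282 peaks) and SB Kbz (24308 peaks) were used. The label of the control Kbz library says that its peak calling found none, so Kbz could not be compared between control and SB cells. The inputs were not analysed here. Peak lists carry no read totals, so the sequencing depth behind each list is unknown. Each peak has a fold enrichment over background. Because the lists differ in size and possibly in depth, fold was compared between lists as a percentile, the rank of the peak among the peaks of its own list. Sets of 3 values below are in the order control Kac, SB Kac, SB Kbz unless stated.

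The cell label was checked against markers, with a promoter taken as 3 kb to either side of any transcription start site (TSS). Of 20 liver products, 10 had a promoter Kac peak in control cells and 11 in SB cells. No promoter Kac peak lay at ALB, APOB, SERPINA1, FGA, FGB or FGG in either list. Of 13 kidney development factors, 11 had one in each Kac list. The canonical TSS was under a Kac peak for 3 (control) and 1 (SB) of the liver products and for 8 and 9 of the kidney factors, where the shares over all protein-coding genes were 59.1% and 60.4%. The kidney factors thus lay near the general share and the liver products below it. A promoter Kac peak lay at 5 of 7 liver transcription factors, 4 of 10 neuronal, 3 of 8 blood and 4 of 6 muscle markers in both Kac lists. No promoter share over all genes is given here. The canonical TSS was under a Kac peak for 2 of 7, 2 of 10, 1 of 8 and 2 of 6 in each Kac list, all below the general TSS share. The cell identity, and its part in the results below, was not tested.

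Glycolysis splits glucose into pyruvate in the cytosol, with ATP spent in the upper steps and regained in the lower steps. HK2 traps glucose as glucose 6-phosphate, and GPI, PFKL, ALDOA and TPI1 turn it into triose phosphates. GAPDH, PGK1, ENO1 and PKM act on the way from these to pyruvate, and LDHA reduces pyruvate to lactate. Tumor cells commonly express the pathway at a high level, and hypoxia-inducible factor (HIF) and MYC are well known activators of its genes. Several steps have isozymes with other tissue patterns, such as PKLR in liver and PGAM2 in muscle.

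The promoters of HK2, PFKL, PGK1 and LDHA are printed because these genes include the member with the highest Kbz rank at the TSS (LDHA), the member with no Kbz peak over the TSS (PFKL), and members with binding letters of HIF. Each window runs from 250 to 11 bases upstream of the canonical TSS, 240 bases, read from hg38 on the plus strand, 5′ to 3′. Capitals mark ACGTG, a form of the hypoxia response element core, CACGTG, an E-box that contains ACGTG, and GGGCGG, a GC box. Each was marked on either strand. The last line is the end of the Kbz peak nearest to the PFKL start, and lies before the PFKL promoter window.
LDHA promoter, chr11:18394313-18394552: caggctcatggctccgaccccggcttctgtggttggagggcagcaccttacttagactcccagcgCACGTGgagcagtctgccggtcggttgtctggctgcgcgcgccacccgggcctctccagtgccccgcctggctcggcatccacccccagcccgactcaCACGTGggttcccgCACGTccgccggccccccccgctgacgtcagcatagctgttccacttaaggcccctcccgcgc
PGK1 promoter, chrX:78103998-78104237: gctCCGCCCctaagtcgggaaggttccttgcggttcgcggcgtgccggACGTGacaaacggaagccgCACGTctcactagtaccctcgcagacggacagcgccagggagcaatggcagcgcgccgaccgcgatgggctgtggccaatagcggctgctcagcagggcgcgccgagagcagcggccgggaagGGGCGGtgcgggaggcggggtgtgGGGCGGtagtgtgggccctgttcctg
HK2 promoter, chr2:74833877-74834116: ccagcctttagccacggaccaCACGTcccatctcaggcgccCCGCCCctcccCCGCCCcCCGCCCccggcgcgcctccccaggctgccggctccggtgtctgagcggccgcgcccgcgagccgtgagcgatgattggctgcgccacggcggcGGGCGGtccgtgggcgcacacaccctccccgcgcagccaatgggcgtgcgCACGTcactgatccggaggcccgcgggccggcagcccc
PFKL promoter, chr21:44299803-44300042: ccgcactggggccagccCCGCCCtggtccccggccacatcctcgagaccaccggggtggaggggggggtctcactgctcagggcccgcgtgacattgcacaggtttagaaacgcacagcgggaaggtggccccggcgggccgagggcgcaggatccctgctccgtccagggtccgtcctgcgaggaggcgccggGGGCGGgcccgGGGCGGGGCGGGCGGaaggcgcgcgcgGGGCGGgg
PFKL Kbz peak, chr21:44299539-44299778: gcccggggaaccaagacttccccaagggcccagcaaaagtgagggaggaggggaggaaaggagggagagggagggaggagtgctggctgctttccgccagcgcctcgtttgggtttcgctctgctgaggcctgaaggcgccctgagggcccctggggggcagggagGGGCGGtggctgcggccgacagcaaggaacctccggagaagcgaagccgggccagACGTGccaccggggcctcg

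The letters ACGTG were found in 5 of the 10 member windows, with 5 matches in LDHA, 2 in HK2, 2 in PGK1, 1 in ALDOA and 1 in GAPDH, against 19.6% of all 20033 promoter windows of this length. CACGTG was found in LDHA only among the members, with 2 copies, each of which also counts as ACGTG on both strands, and in 7.51% of all windows. The GC box was found in 7 members, with 6 matches in PFKL, 5 in TPI1 and none in LDHA, GAPDH or ENO1, and in 57.4% of all windows. The member windows held a median of 28.0 CpG dinucleotides, against 17.0 over all windows, and a median GC content of 70.8% against 62.9%. Some of the windows overlapped annotated untranslated exon sequence, over 240 bases at PKM, 175 at TPI1, 149 at ENO1 and 70 at GPI. The PFKL Kbz stretch held 15 CpG dinucleotides and the PFKL promoter 28. Other forms of the hypoxia response element core were not searched, so a window without ACGTG is not shown to lack the element. These matches describe letters and not binding.

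Kac and Kbz peaks lay in the windows of the 10 members in all 3 lists. A peak in the window was common in general, at 82.6%, 81.4% and 72.3% of protein-coding genes. The windows held 36 control Kac, 30 SB Kac and 21 SB Kbz peaks, with 2 to 5, 1 to 6 and 1 to 3 per gene. The peaks covered 13.9%, 13.7% and 7.27% of the summed window bases, where the sum over all protein-coding windows was 7.10%, 6.91% and 2.28%. The median member had 25.1%, 22.1% and 11.3% of its window covered, against 7.24%, 7.14% and 2.32% for the median protein-coding gene.

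**Figure D1:**
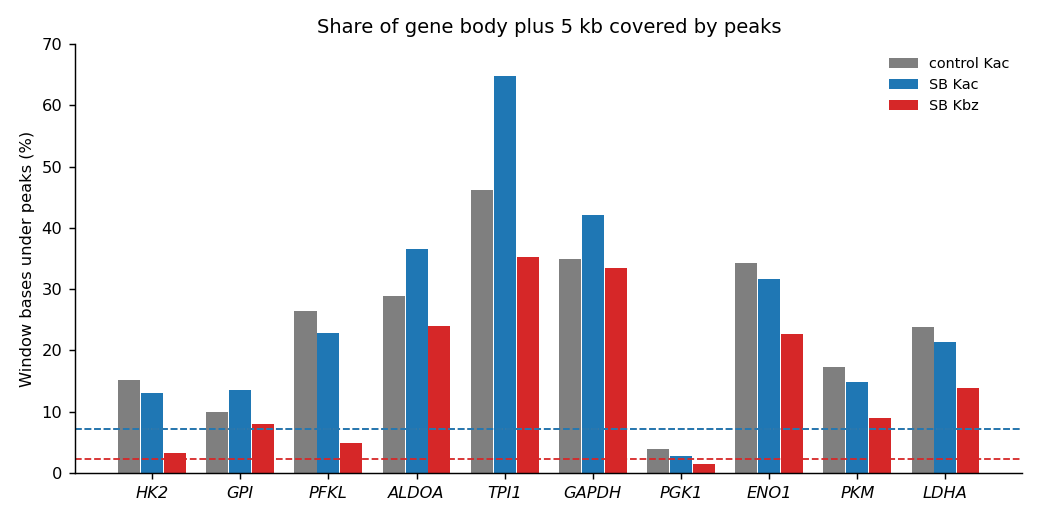
Share of the bases in each gene's window (gene body plus 5 kb to either side, percent) under control Kac, SB Kac and SB Kbz peaks, for the 10 glycolytic genes, with dashed lines at the protein-coding medians, of which the 2 Kac lines nearly coincide. TPI1, GAPDH, ALDOA and ENO1 had the highest Kbz shares, from 22.7% to 35.3%, and PGK1 lay below the dashed lines.

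The coverage differed widely among the members. TPI1, the short gene that interconverts the 2 triose phosphates, had 46.1%, 64.8% and 35.3% of its window covered. GAPDH had 34.9%, 42.1% and 33.4%. Both windows are short, so a peak of given length takes a large share of them. At the other end, PGK1 had 3.85%, 2.73% and 1.38%. Its annotated body spans 218557 bp, because 1 annotated transcript begins 193509 bp upstream of the canonical TSS, at the start of the copper transporter gene ATP7A. HK2 was next for Kbz, at 3.19%.

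The canonical TSS lay under a control Kac peak in 8 members, under an SB Kac peak in 10 and under a Kbz peak in 9, against 59.1%, 60.4% and 45.8% of all protein-coding genes. The members without the control Kac peak were HK2 and GPI, and the member without the Kbz peak was PFKL. With any annotated start of the gene in place of the canonical TSS, the counts were 10, 10 and 9, so HK2 and GPI were no longer exceptions and PFKL was. Of the 10 members with the TSS under SB Kac, 9 also had it under Kbz, where the share over protein-coding genes was 75.4%. A TSS under SB Kac but not control Kac was found at 2 of the 10, where the share was 7.71%. The peaks over the TSS were long. Their median lengths were 4202, 5546 and 3083 bp, against 2830, 2925 and 1821 bp over protein-coding genes. Their median percentiles were 91.1, 89.5 and 79.1, against 83.8, 87.2 and 70.8.

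**Figure D2:**
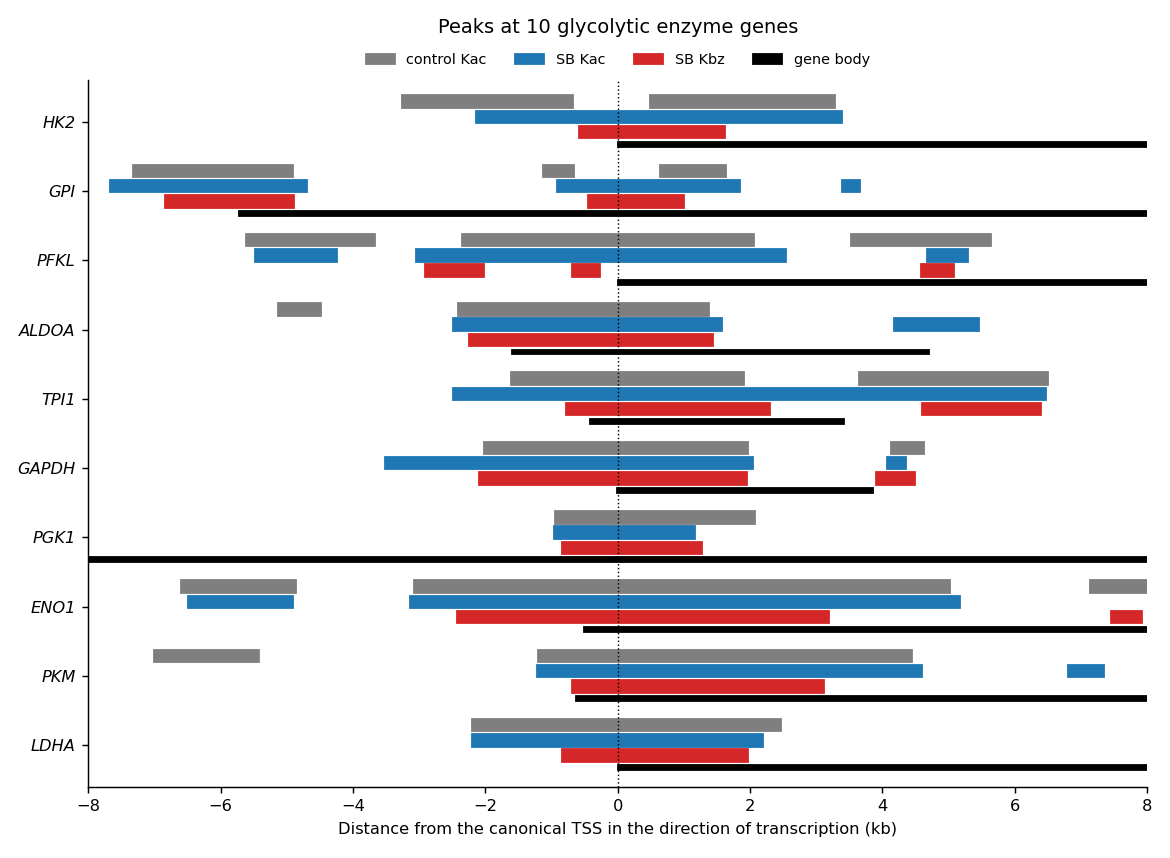
Position of each peak within 8 kb of the canonical TSS for the 10 glycolytic genes, as distance from the TSS in kb in the direction of transcription, with a bar per peak of each list and a black bar for the gene body. The HK2 and GPI control Kac peaks leave the TSS free while the SB Kac and Kbz peaks cover it, and PFKL has Kbz peaks beside the TSS but not over it.

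HK2, the hexokinase that commits glucose to the pathway in many tumors, lies at chr2:74834127-74893359. In control cells its Kac peaks stopped 683 bp upstream of the TSS and began again 487 bp downstream of it, over another annotated start at 1043 bp. In SB cells a single Kac peak of 5529 bp ran from 2136 bp upstream to 3392 bp downstream, at percentile 85.8. Its only Kbz peak, 2210 bp long at percentile 71.4, lay inside that region, from 589 bp upstream to 1620 bp downstream. Further HK2 Kac peaks, 3 in control and 5 in SB cells, were intronic and had no Kbz.

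GPI, the isomerase that makes fructose 6-phosphate, lies at chr19:34359480-34402413. Its canonical TSS sat in a gap of the control Kac list, between a peak that ended 664 bp upstream and a peak that began 632 bp downstream. A SB Kac peak of 2757 bp spanned the gap at percentile 72.6, and a Kbz peak of 1453 bp lay there at percentile 34.6, the lowest of the 9 Kbz peaks over a member TSS. At a cutoff of 5 on the -log10 q scale, neither of these peaks over the GPI start was left. An upstream start of GPI had peaks in all 3 lists, at percentile 83.6, 88.4 and 76.8. The strongest peaks in the GPI window, at percentile 97.0, 94.8 and 98.7, lay over the start of the neighboring gene PDCD2L and not over GPI.

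PFKL, the liver-type phosphofructokinase of the rate-controlling step, lies at chr21:44300051-44327376. Its TSS was under a control Kac peak of 4420 bp with a 4.67-fold enrichment, at percentile 90, and a SB Kac peak of 5592 bp at percentile 65.3, a difference of -24.7 percentile points. Kbz left the TSS free. The 3 Kbz peaks ran from 2909 to 2025 bp upstream, from 695 to 275 bp upstream and from 4581 to 5083 bp downstream, at percentile 18.6, 52.4 and 6.65. The other annotated starts of PFKL were also without Kbz.

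ALDOA, the aldolase that splits fructose 1,6-bisphosphate, lies at chr16:30064164-30070457. A single peak covered the TSS in each list, with lengths of 3793, 4067 and 3683 bp and percentiles of 98.1, 99.5 and 92.6. These were among the highest ranks of the members. A further Kbz peak of 1355 bp in the window covered the start of the neighbor PPP4C at percentile 44.6.

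TPI1 lies at chr12:6867119-6870948. Over its TSS lay a control Kac peak of 3517 bp at percentile 69.7, a SB Kac peak of 8958 bp at 73.1 and a Kbz peak of 3083 bp at 45.7. The SB Kac peak was the longest at a member TSS and reached the starts of the neighbors LRRC23 and SPSB2, which had separate peaks in the control Kac and Kbz lists. The TSS peaks of TPI1 ranked below the medians over protein-coding TSS peaks, which were 83.8, 87.2 and 70.8. At a cutoff of 5 on the -log10 q scale, no TPI1 peak was left in any of the 3 lists. With that cutoff, 61.7%, 65.8% and 52.7% of protein-coding genes kept a peak in the window.

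GAPDH, the dehydrogenase that makes 1,3-bisphosphoglycerate and NADH, lies at chr12:6534512-6538374. Its TSS peaks were 3985, 5562 and 4056 bp long, at percentile 92.4, 97.2 and 90.6. The Kbz peak ran from 2097 bp upstream to 1958 bp downstream, so it reached about as far to either side, and it also covered the start of the divergent transcript GAPDH-DT. PGK1, the first ATP-forming kinase, lies at chrX:77910739-78129295. Its TSS peaks ranked at percentile 74.6, 84.3 and 62.9, with lengths of 3027, 2133 and 2116 bp. An alternative start of PGK1 39060 bp upstream had a control Kac peak at percentile 86.7 and a SB Kac peak at 30.8, with no Kbz.

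ENO1, the enolase that makes phosphoenolpyruvate, lies at chr1:8861000-8879190 on the minus strand. It had the longest Kbz peak at a member TSS, 5634 bp at percentile 79.1, inside Kac peaks of 8099 bp (control, percentile 85.1) and 8318 bp (SB, percentile 93.1). It also had an intronic Kbz peak of 299 bp, from 9167 to 9465 bp downstream of the TSS at percentile 18.9, which overlapped neither Kac list. A further intronic Kbz peak of 463 bp, at percentile 42.1, overlapped control Kac but not SB Kac.

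PKM, the pyruvate kinase gene, lies at chr15:72199029-72231819 on the minus strand. Its TSS peaks were 5650, 5820 and 3801 bp long, at percentile 93.1, 98.5 and 94.7, and the last was the only Kbz peak in its window. LDHA, which regenerates NAD+ by making lactate, lies at chr11:18394560-18408425. It ranked highest of the members for Kbz, with a TSS peak of 2814 bp at percentile 99.4, beside 4681 bp at 92.2 for control Kac and 4395 bp at 99.2 for SB Kac. The Kbz peak ran from 849 bp upstream to 1964 bp downstream, across the printed promoter with its E-boxes. The second Kbz peak in the window, at percentile 62.2, lay over the start of LDHC, the testis isozyme.

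**Figure D3:**
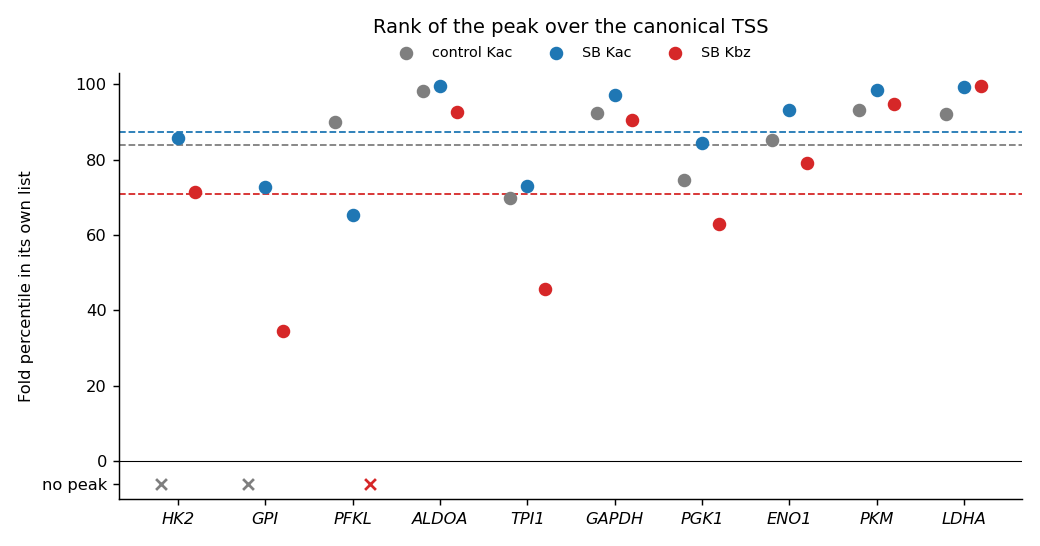
Fold percentile, within its own list, of the peak over the canonical TSS of each glycolytic gene for control Kac, SB Kac and SB Kbz. LDHA, PKM, ALDOA and GAPDH lie above 90 in each list, GPI and TPI1 have the lowest Kbz points, crosses mark a TSS that no peak of that list covers, and dashed lines are medians over protein-coding TSS peaks.

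Set beside each other, 5 of 8 control Kac, 5 of 10 SB Kac and 4 of 9 Kbz member TSS peaks were at or above percentile 90, where the shares among protein-coding TSS peaks were 31.9%, 40.3% and 17.1%. The 4 for Kbz were LDHA, PKM, ALDOA and GAPDH. Their ranks cannot be ordered beyond an error, since each value has no replicate. Between control and SB cells, the TSS peak ranked higher in SB Kac for 7 of 8 members with both peaks, against 65.6% of protein-coding genes with both. The differences were 9.67 points for PGK1, 8.06 for ENO1, 7.03 for LDHA, 5.35 for PKM, 4.80 for GAPDH, 3.36 for TPI1 and 1.38 for ALDOA. PFKL was the exception. The median difference was 5.08 points, against 2.56 over protein-coding genes.

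The Kbz peak was shorter than the SB Kac peak at the same TSS in 9 of 9 members, which was also so for 94.1% of protein-coding genes. The median Kbz to SB Kac length ratio was 0.653 for the members and 0.647 for protein-coding genes. Kbz ranked below SB Kac in 8 of 9 members and in 93.7% of protein-coding genes with both peaks, with a median difference of -14.0 points against -18.0. Both comparisons of Kbz with SB Kac thus gave the members about the general shares. LDHA was the exception, at percentile 99.4 for Kbz and 99.2 for SB Kac. Ranked by length among the Kbz peaks over protein-coding starts, ENO1 was at percentile 98.5, GAPDH at 95.3, PKM at 94.4 and ALDOA at 93.7. TPI1 was at 88.6, LDHA at 84.4, HK2 at 69.2, PGK1 at 65.3 and GPI at 27.1. The member with the highest Kbz fold, LDHA, thus did not have the longest Kbz peak.

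Kbz peaks of the members overlapped Kac. Of 21 Kbz peaks, 19 shared a base with a SB Kac peak, 90.5% with a Wilson 95% interval of 71.1 to 97.3% for counting error only, against 95.5% of the Kbz peaks in protein-coding windows. The 2 that did not were the intronic ENO1 peaks. By bases, 96.4% of the Kbz-covered sequence in the member windows was inside SB Kac peaks, 36.9 of 38.3 kb, close to the 95% over all protein-coding windows, and 89.2% was inside control Kac. The share inside control Kac was lower at HK2 (51.3%), PFKL (69.5%) and GPI (72.5%), and the bases in neither Kac list summed to 570 (1.49%, against 3.12% over protein-coding windows), of which 299 were at ENO1, 161 at GAPDH and 110 at PGK1. For control Kac the protein-coding value was 93.2%. In the other direction, 17 of 30 SB Kac peaks overlapped Kbz, against 36.4% of SB Kac peaks in protein-coding windows. The 13 without Kbz were shorter, with a median of 967 bp against 4067 bp, and ranked at a median percentile of 41.0 against 85.8.

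Kac peaks in the windows were mostly shared between control and SB cells. Of 36 control Kac peaks 28 overlapped SB Kac, against 69.7% in protein-coding windows, and of 30 SB Kac peaks 23 overlapped control Kac, against 71.7%. The 8 control peaks without SB Kac ranked from percentile 7.48 to 45.8, and the 7 SB peaks without control Kac from 21.6 to 57.2. The unshared peaks were thus in the lower and middle ranks of their lists, and none was at a canonical TSS. Starts of other protein-coding genes lay under 6 control Kac, 5 SB Kac and 5 Kbz peaks of these windows, so those peaks cannot be assigned to the enzyme gene alone. Among them were the SB Kac peak over the TPI1 TSS and the peaks at the start that PGK1 shares with ATP7A.

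Around the TSS, Kbz reached further downstream than upstream in most members. Within 3 kb, 7 members had more Kbz-covered bases downstream and 3 had more upstream, where 50.3% of protein-coding genes with unequal cover had more downstream. For control Kac the counts were 6 and 3 (52.6%) and for SB Kac 5 and 4 (58.2%), with 1 member equal in each. The median member had 848 Kbz-covered bases upstream and 1789 downstream. At 1 kb upstream, 9, 8 and 3 of the 10 members lay under control Kac, SB Kac and Kbz, and at 1 kb downstream 10, 10 and 9. Over protein-coding genes the shares were 42%, 39.9% and 20.6% at 1 kb upstream and 43.8%, 46.9% and 21.5% at 1 kb downstream.

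**Figure D4:**
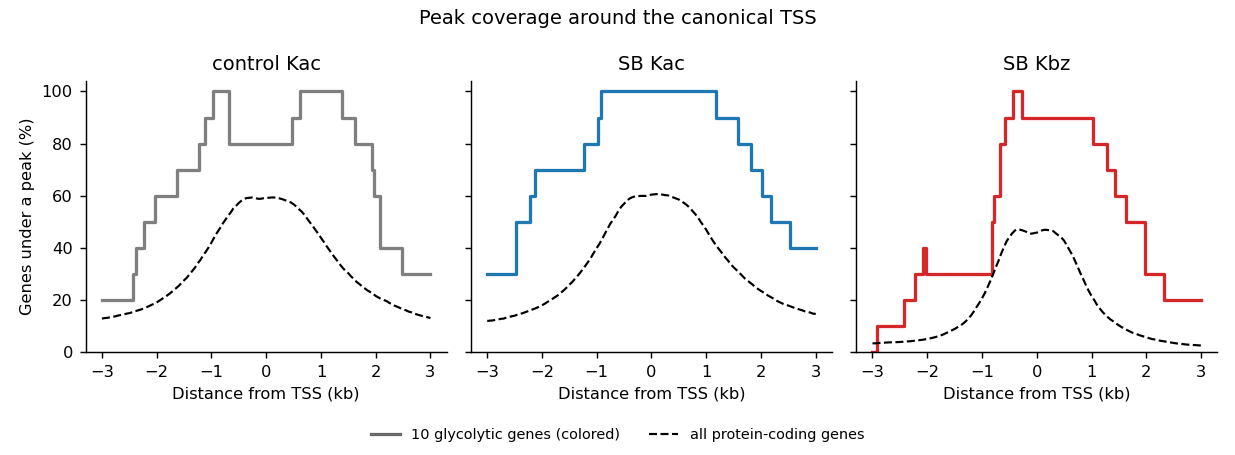
Share of the 10 glycolytic genes (colored steps) and of protein-coding genes (dashed) under a peak at each distance from the canonical TSS, in kb in the direction of transcription, for control Kac, SB Kac and SB Kbz. The Kbz steps are at 9 of 10 genes from the TSS to 1 kb downstream, and at 3 of 10 at 1 kb upstream.

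The other isozymes of the same steps were 18 genes, which were not tested against the 10 members. A window peak was found at 16, 17 and 14 of them, and the canonical TSS was under a peak in 12, 10 and 6. Over protein-coding genes the shares were 82.6%, 81.4% and 72.3% for the window and 59.1%, 60.4% and 45.8% for the TSS, so most of these counts lay near the general shares. The 6 with Kbz at the TSS were HK1, PFKM, PGAM1, LDHB, LDHC and ADPGK. LDHB, the heart-type lactate dehydrogenase, was at percentile 99.2, close to LDHA at 99.4. HK3, PGK2 and PGAM2 were among those with no Kbz peak in the window, while GAPDHS, LDHC, PFKM and ENO3 had one. No tissue pattern is read from these genes. The median isozyme had 3.29% of its window under Kbz, against 11.3% for the 10 members.

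**Figure D5:**
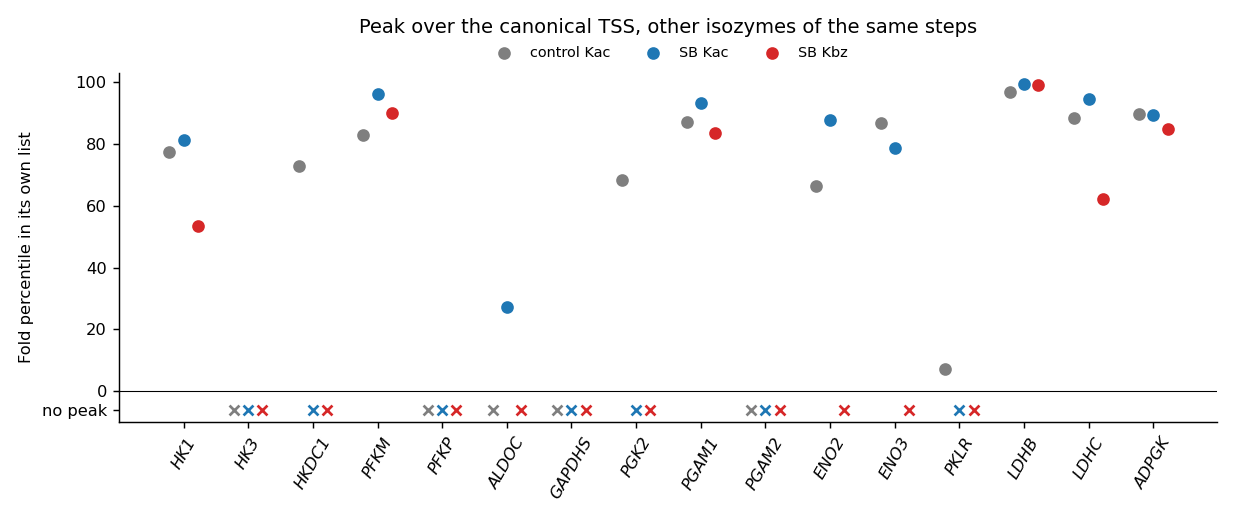
Fold percentile, within its own list, of the peak over the canonical TSS of 16 of the other isozymes for control Kac, SB Kac and SB Kbz, with crosses where no peak covers the TSS. Kbz points are present for 6 genes, and LDHB is the highest at 99.2.

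PKLR, the liver pyruvate kinase, had a Kbz peak at percentile 10.3, away from its canonical TSS. Of the glucose and lactate transporters, 6 of 7 had Kbz in the window and 5 had it at the TSS, and SLC2A2, the liver glucose transporter, had none. All 10 regulators listed, among them HIF1A and MYC, had Kbz in the window, and 6 had it at the TSS. Since 72.3% of protein-coding genes had Kbz in the window and 45.8% at the TSS, nothing particular to these short lists is read from the counts.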

How the data were processed

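ChIP-seq peak lists were analysed for control Kac, SB Kac and SB Kbz, 1 library each. According to the submitters' processing notes and the methods, reads were aligned to hg38 with Bowtie2 2.2.6, duplicates were removed with SAMtools 0.1.19 and broad peaks were called with MACS2 2.1.1 at a stated FDR of 0.01. The broad settings and the background track were not given in the sources used here, and the lists reach q-values above that FDR. The deposited files hold, per peak, a display score (not used), a fold ratio over background averaged over the peak, and -log10 p and -log10 q, as made by the authors. Depth is unknown, so read sampling error could not be given, and a shallower list can miss weak peaks.

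Fold was ranked within each list as a percentile. Windows, TSSs and exons came from GENCODE 44, and canonical means the Ensembl canonical transcript. A base of overlap counted as shared. Peaks off the 24 chromosomes, 3 of control Kac, were dropped. Scripts used Python 3.11.15, pandas 2.3.3 and numpy 2.4.6, and were tested on simulated data. Motifs were searched in hg38 windows 250 to 11 bases upstream of the TSS. All 10 members were named, the 18 isozymes were counted, with some not reported here by name, and other lists were counted. The members and lists were chosen with earlier results of these data known. With 1 library per group no test was run. Alternatives changed the q cutoff, the list size, the window, the overlap and the handling of neighboring promoters.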

Additional observations from a re-analysis of the deposited data

How the results depend on the processing

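Of 150 alternative values for 20 results, 126 stayed within the intervals used, which are the Wilson 95% interval for a share of kb (each kb taken as 1 observation), the 2nd to the 9th member for a median, and 1.5 times the value for a count. The other 24 moved. With -log10 q of at least 5, peaks in the windows numbered 13, 11 and 11 (in the order control Kac, SB Kac, Kbz), covered shares were 7.54% and 7.83% for control and SB Kac, and 66.6% of SB Kac bases were inside Kbz. With the 15000 strongest peaks per list the values were 12, 10 and 13 peaks, 7.49% and 7.71%, and 67.6%. No protein-coding covered share is given for these 2 stricter settings. The protein-coding shares further above come from the full lists and cannot be set beside these values. With the gene body alone, control Kac had 22 peaks and 10.7% covered, and SB Kac 10.2%. With 3 kb to either side of all starts of other genes cut from the windows, control Kac had 22 and Kbz 10 peaks. The shares were then 10.1%, 9.14% and 4.01%, and 7 isozymes had Kbz. Members with a peak were 9, 9 and 7, and the median strongest Kbz percentile was 62.9, against 84.9 in the main setting. The cut took in noncoding starts such as HK2-DT and GAPDH-DT, which lie under SB Kac and Kbz peaks over the members' own TSS. With the canonical transcript plus 5 kb, chosen after seeing the data, the shares were 19.7%, 20% and 10.9%. No protein-coding value is given for the gene body alone, the cut windows or the canonical transcript. The protein-coding shares further above come from the main window and cannot be set beside these values. No paired analysis was possible because the groups hold a lone library apiece, and leaving out a replicate would empty a group. At the q cutoff of 5 the TSS was under a peak in 6, 7 and 7 members, against 42.4%, 49.8% and 33.7% of protein-coding genes. Read depth, and so the power to call weak peaks, is unknown.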

Other observations

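The 10 enzymes have 89 annotated pseudogenes, 65 of them copies of GAPDH. A control Kac peak overlapped 3 of the 89, a SB Kac peak 2 and a Kbz peak 2. No share over other pseudogenes is given here, so nothing particular to these copies is read from the counts. GAPDHP20 had a control Kac peak only, and PKMP3 and TPI1P2 had peaks in all 3 lists. Reads from near-identical copies can be lost or misplaced when only uniquely mapped reads are kept.

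Of 8 genes of gluconeogenesis, the reverse route to glucose, 8 had a control Kac peak in the window, 7 a SB Kac peak and 7 a Kbz peak, and 4 had the TSS under a peak in each list. The protein-coding shares were 82.6%, 81.4% and 72.3% for the window and 59.1%, 60.4% and 45.8% for the TSS. G6PC1, which releases free glucose in liver, had no Kbz peak. The strongest Kbz peak in the window was at percentile 12.2 for PCK1, 47.2 for FBP1, 72.6 for G6PC3, 75.3 for PC, 79.7 for PCK2, 86.0 for SLC37A4 and 97.0 for FBP2. Of these genes PCK1, FBP1 and FBP2 had no Kbz over the TSS, and FBP2 had 0.951% of its window under Kbz. The Kbz peak over the SLC37A4 TSS was at percentile 58.0.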
